A study of Glycyrrhiza uralensis with 12 samples.

Results

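The 200 most evenly expressed annotated genes of *G. uralensis* (licorice) seedlings were picked from the deposited gene table by their level across all 12 libraries. A gene was eligible when it belonged to the annotated set and its mean reached at least 50 CPM (reads of the gene scaled to a common library total, counts per 1000000 mapped reads). The eligible genes were ordered by the coefficient of variation (CV), the SD over the 12 libraries as a percent of the mean, and the 200 with the lowest CV were taken. They are 200 of 3595 eligible genes and of 29436 genes in the table. The members were therefore chosen by their gene-level CPM in every library of every treatment, so those values are given below as a description, and nothing is read from the counts they give in the fits over all genes.

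The study asked how *Bacillus cereus* G2, an endophytic bacterium isolated from licorice roots, acts on salt-stressed seedlings. Whole seedlings 45 days old were sampled from 4 treatments with 3 libraries each. CK was the control watered without salt, S received 75 mM NaCl, CK + G2 was the control watered with a G2 suspension, and S + G2 received both NaCl and G2. All plants were grown in sterilized sand without nutrients, and each replication of a treatment was a pair of pots. In each treatment 3 pots were used for growth measures and 3 for other assays. For RNA, the study states that seedlings were ground and grouped by weight. A library is therefore taken here as pooled ground seedlings, and the pots behind it are not given. The labels number the libraries 1 to 3 within a treatment without saying how the seedlings were grouped into RNA samples, so the spread between libraries may be partly technical.

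Genes whose transcript level is even across tissues and treatments are the usual internal standards of quantitative PCR, where the level of a test gene is read relative to them. In plants, such genes are often sought among those for the cytoskeleton, translation, protein turnover and RNA processing. An even total does not mean that a gene is unregulated, since the same number of transcripts can be made up of different splice forms. Full-length cDNA reads allow both to be looked at. The study describes a nanopore protocol and the sample records name a nanopore instrument, yet the methods also name an Illumina sequencer, and the transcript values below hold as far as the reads were full length. The deposited identifiers carry no gene function, and therefore the members are described by their levels, their place and structure in the annotation, and their transcripts.

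The libraries held 3303591 to 3929023 mapped reads. A single read was worth 0.255 to 0.303 CPM, and a count of 0 allowed up to 3 reads, or 0.764 to 0.908 CPM, in counting error alone. Every library held at least 143 reads of every member. As a mark of green tissue, the pair of genes that the study names for the small chain of Rubisco, the carbon-fixing enzyme, was summed in each library, and this level ran from 7645 CPM in library CK + G2 3 to 33724 CPM in library S + G2 2. The libraries thus differed in this green tissue mark within treatments as well as between them, and in whole seedlings fewer cells of a type and less RNA per cell cannot be told apart. The study lists both genes as upregulated in S vs. CK, so their sum is not a mark of tissue alone.

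The members ranged in CV from 4.0% to 8.86%, with a median of 7.87%, against a median of 18.2% for the 3395 other eligible genes. Their mean level ran from 50.2 to 628 CPM with a median of 98.9 CPM, close to the median of 93.2 CPM of the others. No member reached 1000 CPM, a level that 90 of the others passed. The highest library of a member was 1.15 to 1.44 times its lowest, with a median of 1.30. At the median, the CV of the 4 treatment means was 4.24% and the mean CV within a treatment 6.99%, against 11.9% and 15.1% in the other eligible genes. Means of 3 libraries vary less than single libraries, so the order of these values says nothing of the treatments.

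**Figure D1:**
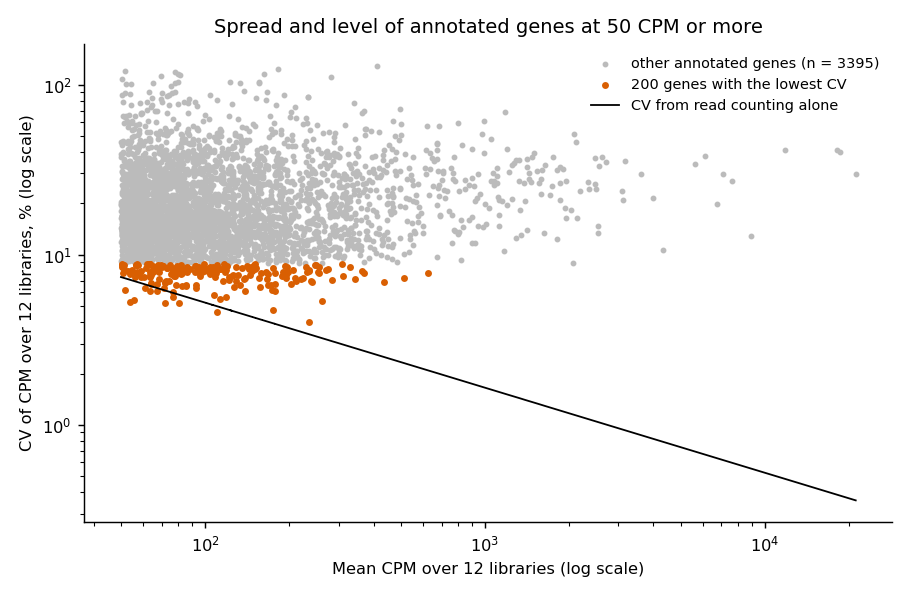
CV of CPM over 12 libraries in percent against mean CPM, both on log scales, for the 3595 annotated genes with a mean of at least 50 CPM; each point is a gene, the 200 with the lowest CV are orange, and the line is the CV that read counting alone would give. The members lie between 4.0% and 8.86%, close to the line below 100 CPM and well above it at the highest levels, and none of them reaches 1000 CPM.

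Read counting alone accounts for part of this spread. The CV that independent read counts would give was 5.25% at the median of the members, and the observed CV was 1.48 times it, from 0.741 to 3.76 times. For the other eligible genes the median was 3.62 times. In 105 of 200 members (52.5%) the observed CV was under 1.5 times the counting CV, against 72 of 3395 others (2.12%), and in 10 members it was below the counting CV. Members with few reads thus cannot be ranked among each other by their remaining spread at this depth. The distance of the members from the other eligible genes in these values follows from the choice of low CVs, and nothing is read from it.

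The gene with the lowest CV was Glyur000034s00002931, a gene of 13 exons on Scaffold00034 (230226 to 235059, plus strand). It stood at 228, 242 and 242 CPM in CK, 233, 225 and 240 CPM in CK + G2, 231, 234 and 240 CPM in S, and 246, 213 and 244 CPM in S + G2. The 4 treatments overlapped, with means from 233 to 237 CPM, and S + G2 held both the highest and the lowest library. Its CV of 4.0% compares with a counting CV of 3.41%. Next came Glyur000073s00007786, a gene of 2 exons on Scaffold00073 (141225 to 143671, plus strand), at 101 to 120 CPM and a CV of 4.57%, below its counting CV of 4.97%.

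Glyur000332s00014977 followed with a CV of 4.71%, and was also the member with the most exons and the longest span. The annotation gives it 52 exons over 37864 bp of Scaffold00332 (45402 to 83265, minus strand) and a coding length of 11679 bp. Its level was 188, 171 and 176 CPM in CK, 164, 174 and 179 CPM in CK + G2, 160, 182 and 182 CPM in S and 172, 170 and 183 CPM in S + G2. The libraries of every treatment were interleaved. It overlaps the gene Glyur000332s00014976 on the opposite strand, which averaged 59.2 CPM, and since the sources do not say whether strand was used in counting, reads of the pair may not be fully separated.

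The other 7 of the 10 lowest were Glyur000072s00008156 (CV 5.21%), Glyur000115s00008246 (5.23%), Glyur000037s00002627 (5.27%), Glyur000931s00028711 (5.35%), Glyur000240s00016380 (5.41%), Glyur000249s00015873 (5.46%) and Glyur000008s00001263 (5.64%). Their means ran from 53.8 CPM for Glyur000037s00002627 to 261 CPM for Glyur000931s00028711. Of all 10, the CV of 6 was below the counting CV. In Glyur000249s00015873 the 3 S libraries were all at 115 CPM, while S + G2 ran from 97.6 to 118 CPM. Its counting CV was 4.905%, and this difference in spread was seen in the values and not tested. The lowest value was in S + G2 2, which was also the most frequent lowest library among all eligible genes.

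**Figure D2:**
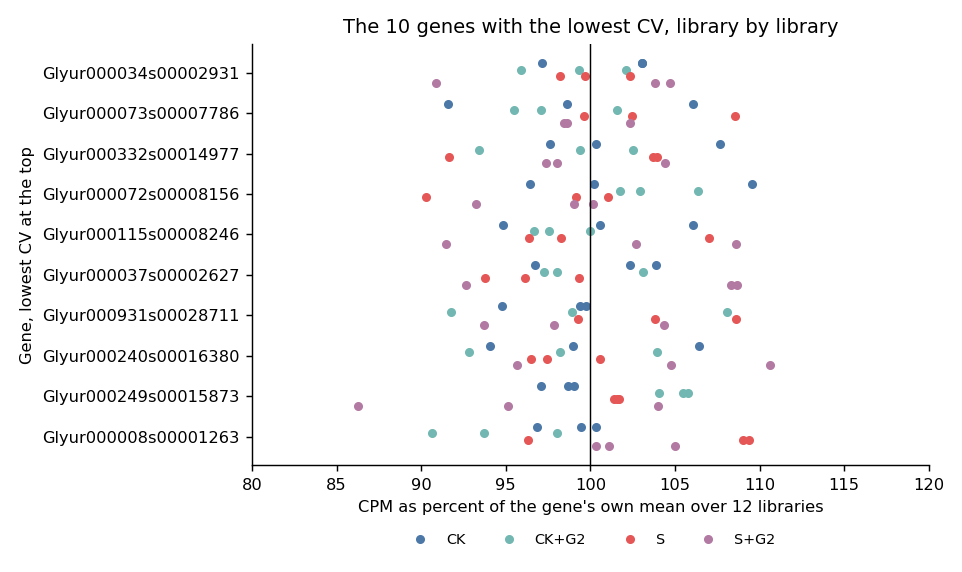
CPM of the 10 genes with the lowest CV as percent of each gene's own mean over 12 libraries (x axis), one gene per line with the lowest CV at the top; each point is a library, coloured and slightly offset by treatment. The points of the 4 treatments overlap in most genes, and the lowest single point is S + G2 2 in Glyur000249s00015873, at 97.6 CPM against a mean of 113 CPM.

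The 5 members with the highest level were Glyur000304s00027651 (628 CPM), Glyur000050s00005738 (513 CPM), Glyur000428s00019740 (437 CPM), Glyur001263s00024653 (371 CPM) and Glyur000877s00023928 (365 CPM). With 1112 to 2737 reads per library, the first 4 had counting CVs of only 2.08% to 2.71% and observed CVs of 6.93% to 7.84%. In these genes the spread between libraries was therefore seen largely free of counting error. Glyur000304s00027651 stood at 705, 579 and 564 CPM in CK, 587, 657 and 667 CPM in CK + G2, 671, 566 and 608 CPM in S and 612, 630 and 690 CPM in S + G2. CK held both the highest and the lowest of the 12 libraries, and the treatments overlapped.

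The limit of the list fell in a dense stretch of genes. The last 3 genes inside were Glyur000189s00009589 (CV 8.85%), Glyur004284s00044834 (8.85%) and Glyur000205s00012922 (8.86%), and the first 3 outside were Glyur000206s00012571 (8.86%), Glyur000979s00026383 (8.88%) and Glyur000304s00027636 (8.88%). Glyur000205s00012922 ran from 54.7 to 72.6 CPM and Glyur000206s00012571 from 73.5 to 103 CPM. Genes on both sides of the limit have nearly the same spread, and the limit marks no step.

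Across treatments, the highest mean was in CK for 51 members, in CK + G2 for 48, in S for 53 and in S + G2 for 48, so no treatment stood out as the highest. The lowest mean was in S + G2 for 75 members, against 46 for CK, 40 for CK + G2 and 39 for S. This was also the most frequent lowest treatment among the other eligible genes, with 35.6% of them. The ratio of the highest to the lowest treatment mean went from 1.01 in Glyur000002s00000230 to 1.22 in Glyur000063s00005893, which were picked after their values were seen. Glyur000002s00000230 averaged 103 ± 5.95 CPM in CK, 103 ± 9.59 CPM in CK + G2, 104 ± 6.82 CPM in S and 104 ± 15.8 CPM in S + G2 (SD, n = 3 each). Glyur000063s00005893 stood at 284, 265 and 252 CPM in S and at 211, 213 and 233 CPM in S + G2, without overlap between these treatments, while CK (237 to 254 CPM) and CK + G2 (249 to 269 CPM) lay above S + G2 and overlapped S.

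The gene-level differences were also fitted with limma on log2(CPM + 1) over all genes. Since the members were chosen for a low CV of these same values, few or no calls among them were fixed by the choice, and the counts are no result about the members. At an adjusted p under 0.05, 0 of 200 members were called in S vs. CK, S + G2 vs. S and CK + G2 vs. CK, where 1.94%, 0.00465% and 0.06% of all genes tested were called. At an unadjusted p under 0.05, 0 members passed in each comparison, against 15.3%, 5.88% and 6.03% of all genes. On the recovered reads edgeR called 0 members, where 1.86%, 0.00544% and 0% of all genes were called. DESeq2 called 0 members, where 2.37%, 0.116% and 0.346% of all genes were called. At an unadjusted p under 0.05, edgeR passed 1 member in S vs. CK, against 2971 of 18408 genes. DESeq2 passed 0 members there, against 2394 of 28332, 903 of 28341 and 1011 of 28306 genes in the 3 comparisons. The log2 differences of the members lay between -0.29 and 0.27 in all 3 comparisons.

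The summed level of the members was 24468 CPM in the lowest library (CK + G2 1) and 26544 CPM in the highest (CK + G2 3), or 2.45% to 2.65% of all mapped reads. Library CK + G2 1 was the lowest of the 12 for 42 members and S + G2 2 for 34, and these were also the most frequent lowest libraries among all 3595 eligible genes, with 13.7% and 22.1% of them. They had the highest Rubisco sums, 27115 and 33724 CPM, and the part of this in the members' values was not tested. The highest value of a member fell most often in S + G2 1 (33 members) and S 1 (30 members), which were the highest for 9.15% and 8.68% of all eligible genes. The eligible genes were most often highest in CK + G2 2 (14.9%) and CK 1 (12.9%), where 18 and 22 members had their highest value. None of these shares was tested.

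Of the 22 genes of carbohydrate metabolism that the study lists by identifier, none was a member. Of the 22, 7 reached 50 CPM and could have been, and all 7 were far down the order of CV among the 3595 eligible genes. The closest was the gene for ribose 5-phosphate isomerase (RPI), an enzyme of the Calvin cycle, at place 3050 with a CV of 32.9%. The genes for glyceraldehyde-3-phosphate dehydrogenase (GPD, place 3193), sucrose synthase (SS, place 3229) and alcohol dehydrogenase (ADH, place 3423) followed in that range, as did both Rubisco small chain genes at places 3293 and 3509. A gene for β-amylase (BM), which cleaves maltose from starch, was near the end at place 3581 with a CV of 102%. That list was chosen by the study on these samples for differing between treatments, so its distance from the members is not independent evidence. β-actin, for which the study lists primers, has no identifier there and was not analysed here.

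In the deposited annotation, the members did not stand out by size. Their median coding length was 844.5 bp against 867 bp for the other eligible genes, and their median transcript length 1336.5 bp against 1346 bp. The median member had 6 exons and spanned 3735.5 bp, against 5 exons and 3325 bp. Genes with a single exon made up 8 of 200 members (4%) and 367 of 3395 others (10.8%), and genes with 20 or more exons 7 members (3.5%) and 68 others (2%). These shares were not tested.

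The single-exon member with the lowest CV was Glyur000037s00002627 (Scaffold00037, 244147 to 244803, minus strand), at 49.9 to 58.5 CPM. The next 4 were Glyur000071s00005264 (CV 7.64%), Glyur002426s00035834 (7.77%), Glyur000060s00004697 (7.85%) and Glyur000150s00014578 (7.91%). Glyur000060s00004697, with the highest level of the 5, ran from 169 to 225 CPM, and S held both ends, S 3 the lowest and S 1 the highest. In all 5 the annotated transcript carried under 1.5% of the gene's CPM and nearly all reads belonged to assembled transcripts, so the single exon of the annotation need not describe the RNA that was read.

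The members were spread over the genome. They lay on 180 scaffolds, no scaffold held more than 3, and only 2 pairs were direct neighbours, with 88 members on the plus and 112 on the minus strand. The pairs were Glyur000134s00009758 with Glyur000134s00009759 and Glyur001064s00029628 with Glyur001064s00029629, each in the same orientation. An annotated gene on the opposite strand overlapped 28 members (14%), against 697 of the others (20.5%). Of their 31 overlapping neighbours, 21 were listed in the gene table, and 4 of these exceeded 10% of the member's level. The highest was Glyur000058s00006194 at 135 CPM, beside the member Glyur000058s00006193 at 172 CPM, and these values are uncertain where strand was not used.

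The gene totals are made up of annotated transcripts, as the annotation gives them, and of transcripts that the authors assembled from the long reads. The assembled transcripts carry no gene name. They were tied to a gene where the reads of all transcripts of one assembled locus equalled the reads that the gene's annotated transcripts left over, in all 12 libraries. This held for 14083 of 14597 genes with such reads (96.5%) and for 166 of 180 members with such reads. Together with the 20 members without such reads, all transcripts were known for 186 members. How the assembled transcripts differ in sequence from the annotated ones was not analysed here.

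Assembled transcripts carried most of the reads of a typical member. The annotated transcripts made up 16.0% of the CPM at the median member and 6.15% at the median of the other eligible genes, and under 5% in 78 of 200 members (39%) and 1638 of 3395 others (48.2%). The strongest transcript of a member was an assembled one in 108 of 186 (58.1%), against 66.3% of 3215 others. In 147 of these 186 members (79%), 2 or more transcripts each held at least 5% of the total, against 72.5% of the others. A single transcript was read in 20 members (10.8%) and in 7.19% of the others. These shares were not tested. Among the 10 lowest, Glyur000073s00007786 had only its annotated transcript, whereas Glyur000034s00002931 had reads on 21 transcripts, the strongest of them, ONT.1829.6, with 30.9% of the total.

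In some members an even total was made of uneven transcripts. As a measure, the variances of a gene's transcripts over the 12 libraries were summed and divided by the variance of the gene total. Above 1, the deviations of the transcripts partly offset each other in these libraries. The ratio also scatters around 1 when transcripts vary independently. It exceeded 2 in 26 of 186 members (14%) and in 88 of 3215 others (2.74%), and exceeded 4 in 6 and 20. A low variance of the total was the rule by which members were chosen, so a higher ratio follows in part from the choice and nothing is read from the difference. The 6 members are described for their transcripts and were picked after their values were seen.

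Glyur000877s00023928, a gene of 5 exons on Scaffold00877 (9037 to 11775, plus strand) with a coding length of 435 bp, had a ratio of 14.3. Its total was 371, 352 and 371 CPM in CK, 426, 328 and 354 CPM in CK + G2, 392, 359 and 351 CPM in S and 350, 400 and 325 CPM in S + G2. Its annotated transcript stood at 93.7, 193 and 198 CPM in CK, 220, 60.2 and 242 CPM in CK + G2, 136, 117 and 1.78 CPM in S and 214, 251 and 1.81 CPM in S + G2. Its share of the total thus went from 0.507% to 68.5%, and it was nearly missing in S 3 and S + G2 3, which belong to different treatments. In the same libraries the assembled transcripts ONT.13064.4 (181 and 145 CPM) and ONT.13064.2 (89.8 and 148 CPM) made up most of the total. ONT.13064.3 was highest in CK + G2 2, at 134 CPM, where ONT.13064.2 was lowest, at 7.10 CPM. Whether the libraries differ in the seedlings or in how reads were given to near-identical transcripts was not tested.

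Glyur000259s00016732 (Scaffold00259, 7718 to 11434, plus strand) had the highest ratio, 17.8. Its total was between 91.4 and 114 CPM with a CV of 5.81%, place 12 in the order. The annotated transcript was at 5.41, 3.88 and 9.08 CPM in CK, 12.6, 8.94 and 37.3 CPM in CK + G2, 68.2, 12.4 and 5.60 CPM in S and 1.86, 2.38 and 1.81 CPM in S + G2. Library S 1 therefore stood far above all others and CK + G2 3 was next. In these libraries the main assembled transcript ONT.7767.1 was lowest, at 17.1 and 22.7 CPM, against 36.8 to 58.2 CPM in the rest.

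**Figure D3:**
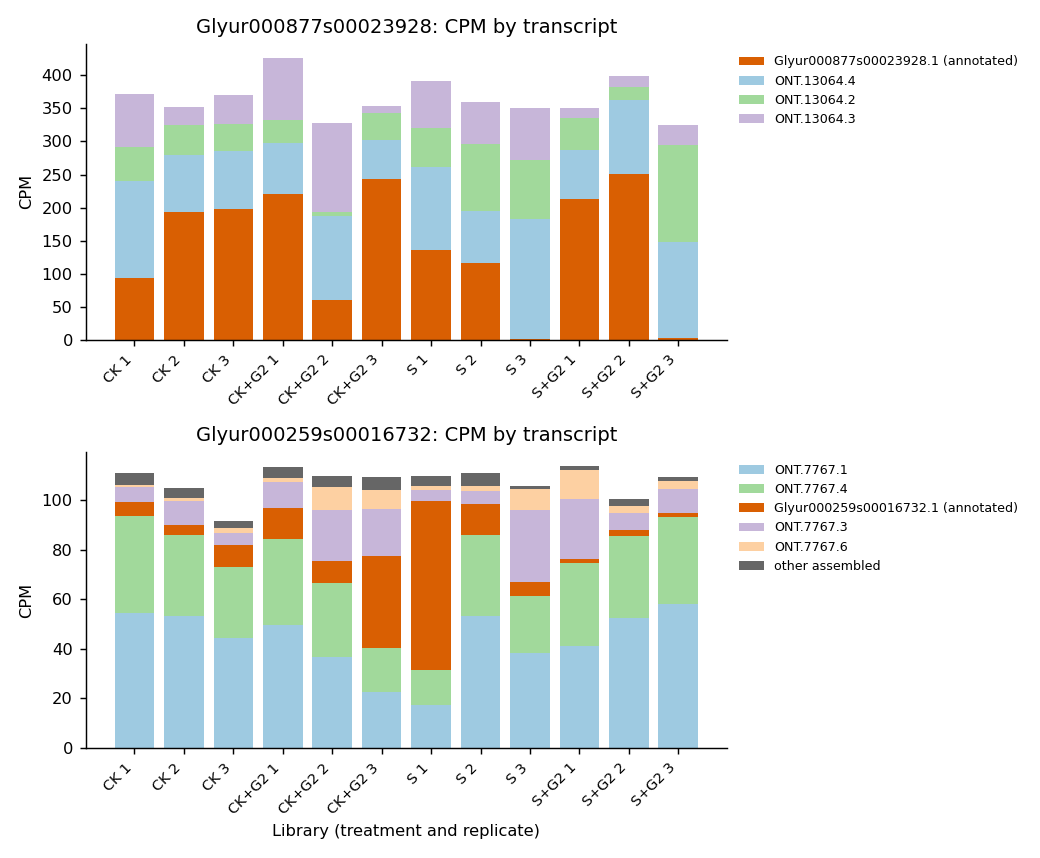
CPM of each transcript (stacked bars, y axis) in each of the 12 libraries (x axis) for Glyur000877s00023928 (top) and Glyur000259s00016732 (bottom); the annotated transcript is orange, assembled transcripts have other colours and the height of a bar is the gene total. The totals stay within 325 to 426 CPM and 91.4 to 114 CPM, while the annotated transcript goes from 1.78 to 251 CPM in the first gene and from 1.81 to 68.2 CPM in the second.

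The other 4 showed smaller swings. In Glyur001147s00029001 (ratio 6.83), the assembled transcript ONT.14258.6 ranged from 0.526 CPM in CK + G2 2 to 24.2 CPM in S 2 within a total of 77.8 to 96.5 CPM. In Glyur000135s00007300 (5.66), ONT.5305.1 reached 32.8 CPM in CK + G2 3, was at 0 in 7 libraries and did not exceed 8.68 CPM in the others. Both swings were between single libraries and not between treatments. In Glyur002383s00031059 (5.41), the annotated transcript rose to 150 CPM in S 1 and 148 CPM in CK + G2 3, the libraries in which ONT.16429.1 was lowest, at 8.12 and 13.5 CPM. In Glyur000173s00011834 (4.20), ONT.6202.4 was at 23.6 to 34.5 CPM in CK and at 46.6 to 65.2 CPM in S + G2, without overlap between these groups. This pair of treatments was picked after the values were seen and was not fitted. The annotated share of this gene was 59.3% to 63.5% in CK, 46.0% to 63.0% in CK + G2, 31.1% to 54.0% in S and 30.8% to 48.4% in S + G2.

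The rule used the gene totals and not how a total divides into transcripts, so this division was tested. It is not wholly independent of the choice, since a low variance of the total limits how its parts can move together. All members have a mean of at least 50 CPM, while the genes tested include lower ones. The percentages passing are therefore not fully comparable. For each gene, the summed CPM of its annotated transcripts was divided by the rest of the gene's CPM, and the log2 ratio was compared between treatments with limma over all genes in which both parts had a mean of at least 2 CPM. In S vs. CK 112 members could be tested, in S + G2 vs. S 116 and in CK + G2 vs. CK 112. At an adjusted p under 0.05 (Benjamini-Hochberg over all genes tested), 0 members were called in each, where 0%, 0.0218% and 0% of all genes were called. At an unadjusted p under 0.05, 9 (8.04%), 5 (4.31%) and 1 (0.893%) of the members tested passed, where 6.4%, 6.37% and 5.4% of all genes did. With weights for the reads behind each ratio, limma called 0 members, where 0.0213%, 0% and 0% of all genes were called. At the unadjusted p, 16, 12 and 9 members (14.3%, 10.3% and 8.04%) passed, against 6.12%, 5.91% and 5.4% of all genes. With 1 library left out, the unadjusted count in S vs. CK was 9 without CK 1, 4 without CK 2 and 2 without CK 3. It was 7, 6 and 7 without S 1, S 2 and S 3. Of all genes, 217 of 4694 (without CK 3) to 352 of 4697 (without S 1) passed there. In S + G2 vs. S, 4 to 7 members passed, where 220 of 4614 to 354 of 4595 genes did. In CK + G2 vs. CK it was 1 to 4 members, where 172 of 4767 to 356 of 4730 genes passed. These counts vary with single libraries and with the weighting, and nothing is read from their distance to all genes. No tool other than limma was run on this ratio.

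The 2 members with the lowest p in each comparison are given as values that did not pass the adjustment. In Glyur001064s00029629 (Scaffold01064, 42852 to 48532, plus strand), the annotated share was 16.3%, 12.9% and 17.7% of the gene in S and 1.39%, 1.81% and 3.80% in S + G2, without overlap. The log2 ratio differed by -2.64 ± 0.358 (SE) in S + G2 vs. S, with a limma p of 7.4e-05 and an adjusted p of 0.170. In CPM, the annotated transcript stood at 11.0, 8.16 and 11.7 in S and at 0.799, 1.06 and 2.59 in S + G2, where the first value is the level of 3 reads. A CK + G2 library, with 1.98%, was as low as S + G2, while CK was at 9.05% to 13.6%. The second member of this comparison, Glyur000647s00023067, was at 1.26% to 2.42% in S and 3.12% to 5.57% in S + G2 (log2 difference 1.10 ± 0.350, limma adjusted p = 0.640).

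Glyur002065s00035689 (Scaffold02065, 34669 to 38557, plus strand) had the lowest p both in S vs. CK and in CK + G2 vs. CK, which share the CK libraries. Its annotated share was 91.5%, 97.4% and 97.3% in CK, 77.99%, 82.9% and 82.5% in CK + G2, 83.4%, 86.3% and 83.6% in S and 92.1%, 85.3% and 82.5% in S + G2. CK thus lay above S and CK + G2 without overlap, while S + G2 reached into the range of CK. The log2 ratio differed by -1.96 ± 0.429 in S vs. CK (limma adjusted p = 0.494) and by -2.29 ± 0.435 in CK + G2 vs. CK (limma adjusted p = 0.672). The assembled transcript ONT.16093.1 was at 1.66 to 5.92 CPM in CK and at 10.7 to 12.8 CPM in S, so in CK the ratio rests on few reads.

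The remaining pair were Glyur000035s00004999 in S vs. CK, at 21.3% to 39.8% in CK and 16.2% to 18.1% in S (log2 difference -1.13 ± 0.368, limma adjusted p = 0.631), and Glyur000259s00016732 in CK + G2 vs. CK. The latter was at 3.69% to 9.93% in CK and 8.13% to 34.1% in CK + G2, and these groups overlapped (log2 difference 1.499 ± 0.665, limma adjusted p = 0.906). Its share in S + G2 was 1.64% to 2.36%, below every library of the other treatments. In S + G2 vs. S its log2 difference was -3.31 ± 1.05 (limma adjusted p = 0.640). None of these differences passed the test. In Glyur000259s00016732, library CK + G2 3 had the highest share of the CK and CK + G2 libraries. Over the settings of this fit its log2 difference in CK + G2 vs. CK ranged from 0.750 to 1.99.

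**Figure D4:**
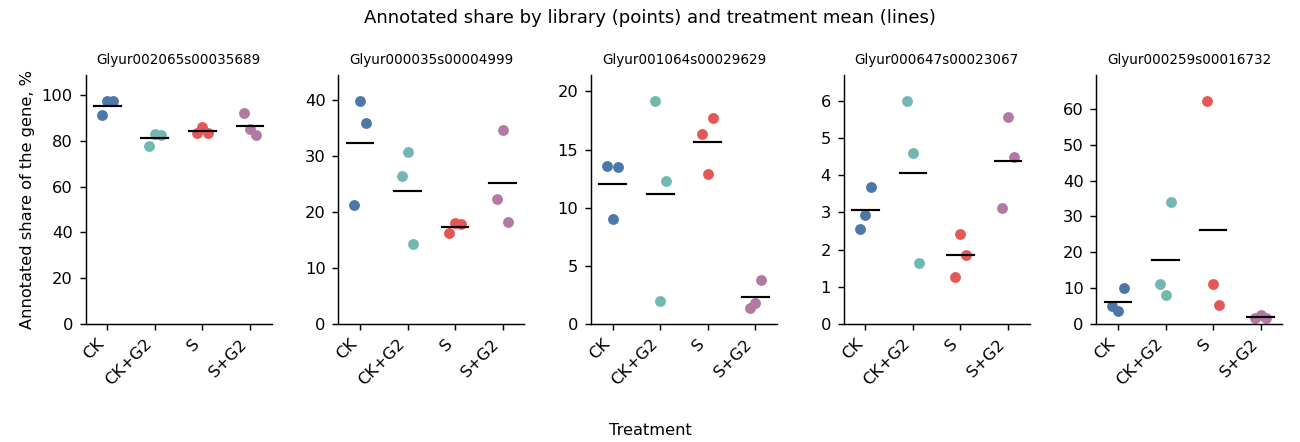
Annotated share of the gene's CPM in percent (y axis, from 0, with its own scale in each panel) by treatment (x axis) for the 5 members with the lowest p; points are libraries and lines are means of 3 libraries. S + G2 (1.39% to 3.80%) lies below S (12.9% to 17.7%) in Glyur001064s00029629, and CK lies above S and CK + G2 in Glyur002065s00035689. In Glyur000259s00016732 a single S library at 62.2% stands apart, and S + G2 (1.64% to 2.36%) lies lowest.

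How far the choice of 200 holds was read by changing the rule. Of the 200 members, 154 to 180 were again among the 200 lowest when 1 library was left out, and 136 were so for every one of the 12 libraries. Scaling the libraries by TMM or by median-of-ratios size factors, which set the bulk of the genes rather than the read total equal, kept 121 members each. By the CV of the 4 treatment means alone only 63 stayed, and by the annotated transcripts alone 65, since only 76 members reached 50 CPM in those. A set of 77 members was kept with every single library left out, under both scalings, by the SD of log2 values and by the CV in excess of read counting, and it includes all 10 members with the lowest CV.

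**Figure D5:**
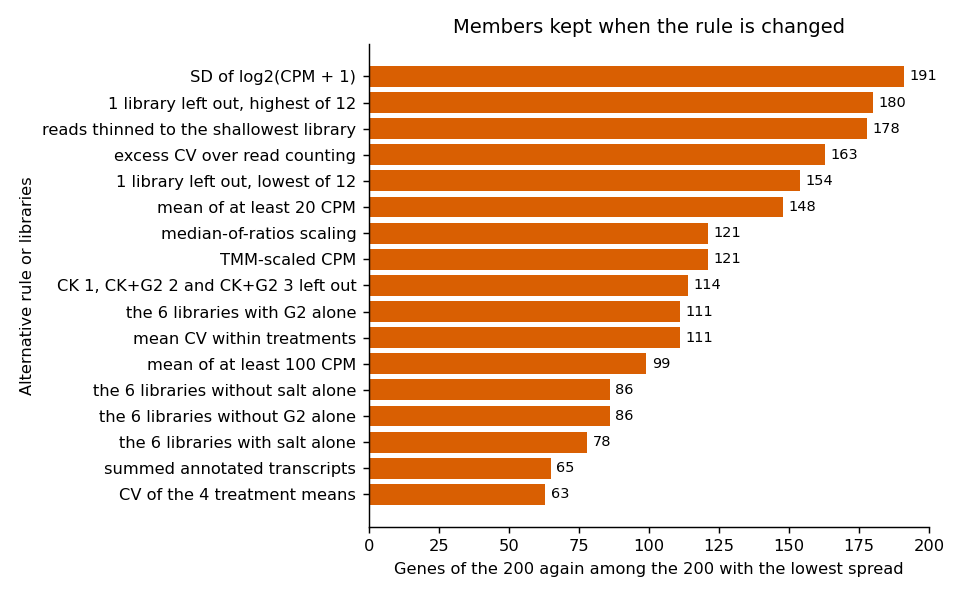
Number of the 200 members that were again among the 200 genes with the lowest spread (x axis, bars from 0) under each changed rule or set of libraries (y axis). The bars run from 63 for the CV of the 4 treatment means to 191 for the SD of log2 values, with 121 under either rescaling.

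To read the spread in libraries that had no part in the choice, the rule was applied to 6 libraries and the genes it picked were followed in the other 6. Genes picked in the 6 libraries without G2 had a median CV of 5.74% there and of 11.97% in the 6 libraries with G2, where all eligible genes had a median of 18.9%. Picked with G2 and read without it, they had 9.66% against 15.4%. Picked without salt and read with salt they had 10.6% against 15.1%, and in the opposite direction 11.0% against 15.9%. In the libraries not used, 163 to 178 of 200 picked genes were below the median of the eligible genes, and the highest CV of a picked gene there was 27.2% to 40.0%. The lists picked without and with G2 shared 33 genes, or 16.5% of each list, and those picked without and with salt 21 genes, or 10.5% of each. Each list holds 200 of 3463 to 3675 eligible genes, so unrelated lists would share some genes too. A low CV over 6 libraries thus carried over as a tendency, while the position among the 200 lowest mostly did not. The picked genes were not matched in level to the eligible genes, so counting error may have a part in this comparison.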

How the data were processed

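RNA of whole seedlings was read as full-length cDNA in 12 libraries. The methods follow a nanopore protocol and the records give a nanopore instrument, but an Illumina sequencer is named in the methods as well, and the values were treated here as nanopore reads. Per the study's methods, reads that were short, of low quality or ribosomal were discarded, and full-length reads were polished and mapped. The authors deposited the result as CPM per gene and per transcript. minimap2 is named in the submitters' processing notes, its version, the genome release and the strand setting being not given in the sources used here. Positions follow the scaffolds of the deposited annotation, in which 27089 of 217320 exon lines were repeats and were counted once.

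The reads behind each deposited CPM were recovered from the value of a single read, and 100% came out whole within 0.01. The counting CV is the square root of the expected count variance over the mean. Because the values are CPM, limma 3.58.1 (trend, R 4.3.3) was used, two-sided, with each fit on the 6 libraries of its treatments. For the gene level, log2(CPM + 1) was fitted for genes with at least 1 CPM in 3 libraries. For the annotated share, 0.5 CPM was added to both parts. edgeR 4.0.16 and DESeq2 1.42.0 served as alternatives on these reads. Fits were tested on simulated data.

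The members and gene lists were chosen with earlier results of these data known. Named were the 10 members lowest in CV, the 5 highest in level, 3 genes on either side of the limit, eligible carbohydrate genes, 2 members of lowest p per share comparison (none was called), the members with the most exons and longest span, and 5 with 1 exon.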

Additional observations from a re-analysis of the deposited data

How the results depend on the processing

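The number of members again among the 200 lowest was within 1.5 times of 200 with a minimum of 20 CPM, by the SD of log2(CPM + 1), by excess CV, with thinned reads and with any single library left out (154 without CK + G2 replicate 1, to 180). It was 121 with TMM scaling, 121 with median-of-ratios scaling, 111 by the mean CV within treatments, 63 by the CV of the 4 treatment means and 65 with summed annotated transcripts. A minimum of 100 CPM left 99, all the members above it. With CK replicate 1 and CK + G2 replicates 2 and 3 left out together, it was 114. It was 86 in the libraries without G2, 111 with G2, 86 without salt and 78 with salt. Under TMM scaling, genes chosen with salt had a median CV of 9.61% without salt.

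The fits of the annotated share had 42 alternatives (other pseudocounts and filters, weights, the first annotated transcript, all 12 libraries, single libraries left out and the replicate block), and a member was called in 0 of them. At most 0.0658% of all genes tested were called in any of these fits, so this count is no result about the members. The 39 alternatives at gene level use the values by which the members were chosen and say nothing of stability. Over all genes at gene level, limma called 418, 1 and 13 genes in S vs. CK, S + G2 vs. S and CK + G2 vs. CK, edgeR on the recovered reads 343, 1 and 0, and DESeq2 671, 33 and 98. The lowest adjusted p of a member for the annotated share was 0.0506, in S + G2 vs. S without S + G2 replicate 3. Libraries with the same number were only weakly correlated in their deviations from the treatment means (r from -0.139 to 0.118 across genes, in the 3 comparisons fitted). Whether the numbers mark a shared batch or pairing was not tested. With the replicate block, the annotated share fits called 0 members, where 0%, 0.0218% and 0% of all genes were called. With 3 libraries per treatment, a p that misses the threshold does not show that transcripts were unaltered.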
